A study of Arabidopsis thaliana with 18 samples.

Results

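The VIM genes and the enzymes that copy DNA methylation were followed in seedlings of the pold2 mutant and of wild type (WT) of Arabidopsis thaliana. The set was chosen by gene identifier and holds 10 genes, VIM1 to VIM6, MET1, CMT2, CMT3 and DDM1. Of these, 8 have a row among the 19858 genes of the authors' deposited table. VIM2 (AT1G66050) and VIM4 (AT1G66040) have none, and their transcripts were not analysed here. POLD2 is a subunit of DNA polymerase delta, which copies nuclear DNA. Both genotypes are of ecotype C24 and were sampled as whole seedlings at 10 days, grown on medium with 20 g/L sucrose at 22°C under 23 h of daily light, with no treatment. The labels name no allele for the mutant. RNA came from 3 libraries of pold2 and 3 of WT, of 18 libraries in the series, and the authors pooled them to 1 FPKM value (fragments scaled to transcript length and sequencing depth) per genotype. The WT chromatin data are peak lists of H3K27me3, H3K4me3 and H3K9me2, each from 1 library.

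Each round of DNA replication leaves methylated cytosines on the old strand only. In plants MET1 restores methylation at CG sites, and VIM proteins, relatives of mammalian UHRF1, bind methylated cytosine and are needed for that step. CMT3 and CMT2 methylate cytosines outside CG in chromatin that carries H3K9me2, and DDM1 is a chromatin remodeller that opens such chromatin to the methyltransferases. H3K27me3 is the mark of Polycomb repression, and H3K4me3 marks the starts of transcribed genes. No sequences are printed.

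POLD2 (AT2G42120) itself was at 2.83 FPKM in pold2 and 7.21 FPKM in WT in the authors' deposited table (2.55-fold lower in pold2, q = 0.00103). The levels below are pooled and carry no SD, and depth is unknown. Nothing in the labels ties the libraries to separate cultures, and the spread behind the authors' q may then be technical. Among markers of the tissues a seedling can hold, 7 of 8 listed floral organ identity genes (AP1, SEP3, SEP1 and PI among them) passed as higher in the authors' deposited table. The listed floral genes summed to 244 FPKM in pold2 and 17.7 FPKM in WT. SEP3 alone gave 196 FPKM in pold2 and 6.79 FPKM in WT. AP1, AP3, PI, AG, SEP1 and SEP2 were under 0.5 FPKM in WT. Every gene with a row had at least 0.501 FPKM in one genotype, so these could be listed only if higher in pold2. Of 7 listed seed maturation genes, 5 were called higher (CRC, CRA1, OLEO2 and OLEO4 among them) in the authors' deposited table, with sums of 83.0 FPKM in pold2 and 26.1 FPKM in WT, while the 3 endosperm imprinted genes had no row. Of 17 genes of dividing cells in S phase, 5 were called lower (HTR3, HTR9, HTR13 and MCM6 among them) in the authors' deposited table, with sums of 834 FPKM in pold2 and 1057 FPKM in WT. Most of both sums came from the histone H3 genes HTR1, HTR2, HTR3, HTR9 and HTR13. CDC6A, ORC1A and ORC1B had log2 ratios above 0 (0.18, 0.38 and 0.26), none of them called. Leaf genes were present and 4 of 6 were called lower (LHCA1, LHCB1.1, LHCB2.1 and PSAD1), 1 of 6 root genes was called higher (IRT1), and 6 of 6 damage response genes were called higher (SMR7, BRCA1, TSO2 and PARP2 among them) in the authors' deposited table. Beside each of these marker counts, 5.97% of all genes were called higher and 6.47% lower. In whole seedlings, fewer cells of a type and less RNA per cell cannot be told apart.

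The 8 genes did not move as a block. By the authors' q under 0.05, VIM5 and MET1 were higher in pold2, CMT2 was lower, and the other 5 were not called. Over all genes, 12.4% were called in the authors' deposited table, 5.97% higher and 6.47% lower. Without adjustment, 6 of the 8 had a p under 0.05 in the authors' deposited table, as had 24.0% of all genes. The median log2 ratio of pold2 over WT was 0.26 over the 8 genes and 0.25 without VIM5, beside -0.01 over all genes with a finite ratio.

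**Figure D1:**
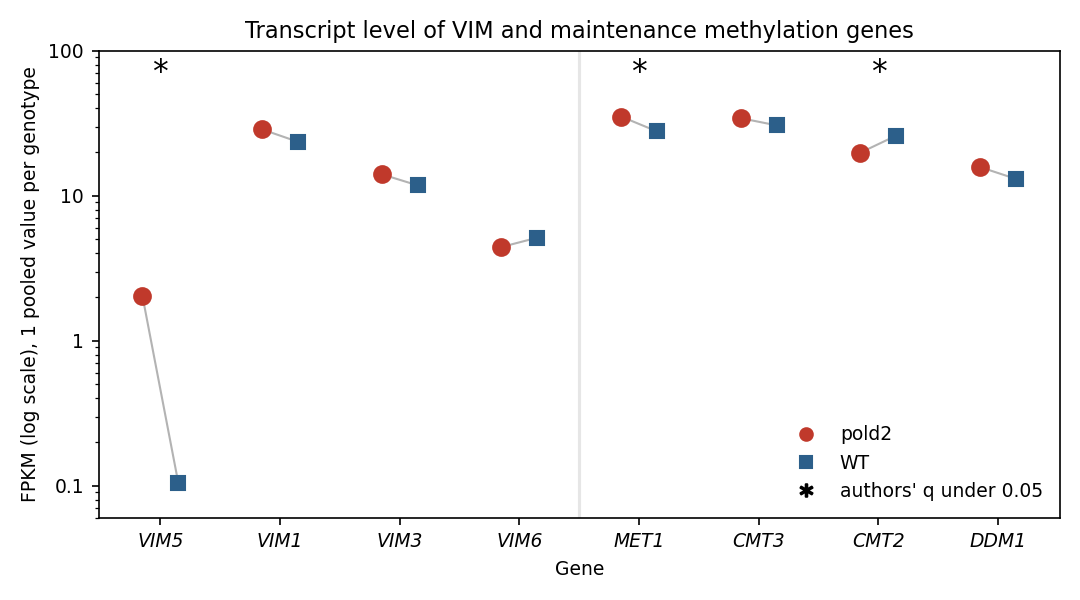
Pooled FPKM (log scale) of the 8 genes in pold2 (circles) and WT (squares), with no error bars because each genotype has 1 value. VIM5 stood at 2.05 FPKM in pold2 and 0.105 FPKM in WT, and asterisks mark the 3 genes with an authors' q under 0.05.

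VIM5 (AT1G57800, chromosome 1, 21408623 to 21412283, TAIR10), also named ORTHRUS 3, had the largest change of the 8. VIM5 was singled out for its change in these same data, so its size and rank are given as a description. It was at 2.05 FPKM in pold2 and 0.105 FPKM in WT in the authors' deposited table. That is a 19.5-fold higher level in pold2 (log2 ratio 4.29, p = 0.0001, q = 0.00188 in the authors' deposited table), which ranked 22 from the highest among the finite ratios. The fold rests on a WT level near 0, and with 1 FPKM added to both values the log2 ratio was 1.46. Every gene of the authors' deposited table had at least 0.501 FPKM in one genotype, so VIM5 has a row only through its pold2 level. All 269 genes under 0.5 FPKM in WT were therefore higher in pold2, and 36.4% of them were called in the authors' deposited table. Of the floral and seed markers given above, 7 of 8 and 5 of 7 were also called higher in pold2 (5.97% of all genes). The floral genes AP1, AP3, PI, AG, SEP1 and SEP2 likewise have a row only through their pold2 level. The part of these markers in the VIM5 level was not tested.

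The other VIM genes of the table showed no called change. VIM1 (AT1G57820, chromosome 1, 21414170 to 21417946), the family member first found through a natural methylation variant, was at 28.7 FPKM in pold2 and 23.5 FPKM in WT in the authors' deposited table (log2 ratio 0.28, p = 0.0066, q = 0.0523). VIM3 (AT5G39550, chromosome 5, 15837210 to 15840638), which acts redundantly with VIM1 in CG methylation, was at 14.1 FPKM in pold2 and 11.8 FPKM in WT in the authors' deposited table (log2 ratio 0.25, q = 0.118). VIM1 and VIM3 thus lay slightly above their WT level, without passing the threshold. VIM6 (AT4G08590, chromosome 4, 5461483 to 5466671), also named ORTHRUS-LIKE, was at 4.43 FPKM in pold2 and 5.14 FPKM in WT in the authors' deposited table (log2 ratio -0.21, q = 0.673). The table gives VIM6 the same locus as AT4G08580, at 19.0 FPKM in pold2 and 18.6 FPKM in WT in the authors' deposited table, so reads of these overlapping genes may have been shared.

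Set against its paralogues, VIM5 had a log2 ratio higher by 4.00 than VIM1, by 4.03 than VIM3 and by 4.50 than VIM6. With 1 pooled value per genotype these differences have no test of their own, and VIM5 was singled out for its change. Even in pold2, VIM5 was the lowest of the listed family members. The VIM1 level was 14.0 times that of VIM5 in pold2 and 224 times in WT, and the VIM3 level 6.86 times in pold2 and 112 times in WT. VIM6 came closest, at 2.16 times the VIM5 level in pold2 and 48.9 times in WT. FPKM is scaled to transcript length, but that scaling does not remove reads shared between VIM copies or with AT4G08580, which may affect these comparisons. The 4 listed VIM genes summed to 49.2 FPKM in pold2 and 40.6 FPKM in WT. VIM5 made up 4.17% of that sum in pold2 and 0.259% in WT, and VIM1 made up 58.3% in pold2 and 58.0% in WT. Without VIM5 the sum was 47.2 FPKM in pold2 and 40.5 FPKM in WT. VIM genes are similar in sequence, and how the authors treated reads that match several copies is not given in the sources used here.

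Of the methyltransferases, MET1 rose and CMT2 fell, each by less than 1.5-fold. MET1 (AT5G49160, chromosome 5, 19932230 to 19938369) was at 35.2 FPKM in pold2 and 27.8 FPKM in WT in the authors' deposited table (1.27-fold higher, log2 ratio 0.34, q = 0.0104). CMT2 (AT4G19020, chromosome 4, 10414526 to 10421209), which methylates CHH sites of long transposons, was at 19.8 FPKM in pold2 and 26.0 FPKM in WT in the authors' deposited table (1.31-fold lower, log2 ratio -0.39, q = 0.00103). Its relative CMT3 (AT1G69770, chromosome 1, 26248318 to 26253585), the CHG methyltransferase, was at 34.3 FPKM in pold2 and 30.6 FPKM in WT in the authors' deposited table (log2 ratio 0.17, q = 0.313). CMT2 and CMT3 thus had ratios of opposite sign, of which that of CMT2 was called. DDM1 (AT5G66750, chromosome 5, 26648951 to 26653073) was at 15.7 FPKM in pold2 and 13.1 FPKM in WT in the authors' deposited table (log2 ratio 0.27, p = 0.011, q = 0.0756). VIM1, VIM3 and DDM1 were close together on the ratio scale, at log2 ratios of 0.28, 0.25 and 0.27 in the authors' deposited table, with MET1 just above them. Of the 17 S-phase markers, 5 were called lower (6.47% of all genes) and 12 were not called. The 17 summed to 834 FPKM in pold2 and 1057 FPKM in WT. Most of both sums came from histone H3 (HTR) genes, and the part of these markers in the values above was not tested.

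**Figure D2:**
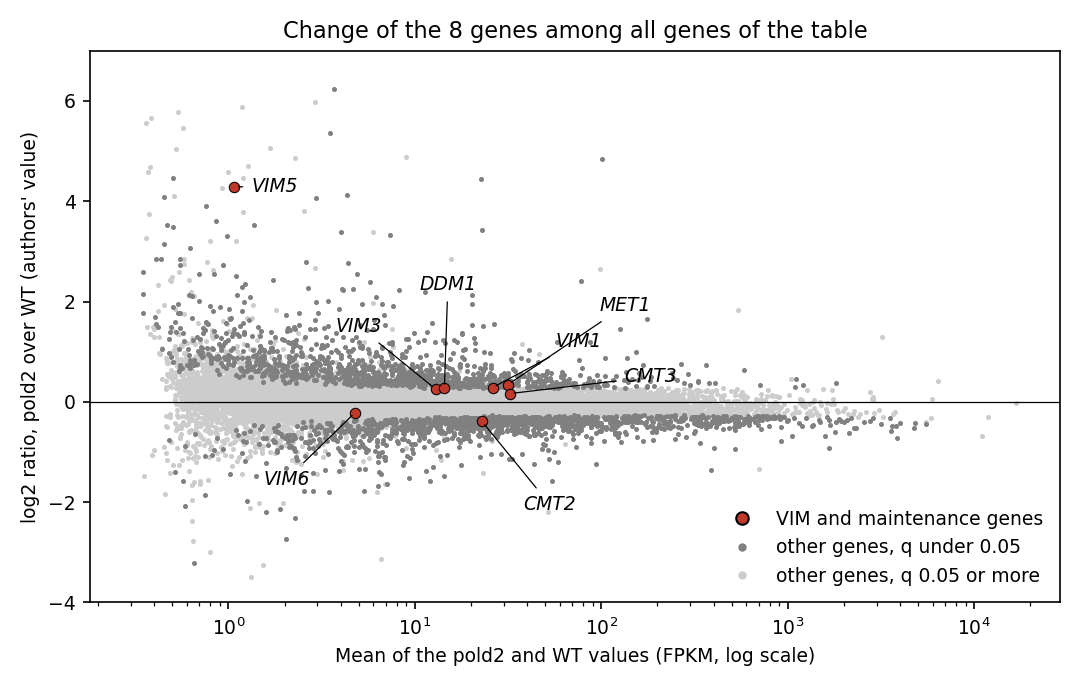
The authors' log2 ratio of pold2 over WT against the mean FPKM (log scale) for the genes with a finite ratio, with the 8 VIM and maintenance genes labelled; 3 genes lie beyond the vertical range of -4 to 7. VIM5 lies far above the other 7, whose log2 ratios run from -0.39 to 0.34.

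By level the genes fell in nearly the same order in both genotypes. In pold2 the order from the highest was MET1, CMT3, VIM1, CMT2, DDM1, VIM3, VIM6 and VIM5. In WT it was CMT3, MET1, CMT2, VIM1, DDM1, VIM3, VIM6 and VIM5. MET1 and CMT3 changed places, as did VIM1 and CMT2. Whether neighbours in this order differ beyond the spread between libraries cannot be told from pooled values.

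The WT peaks over the loci themselves set VIM5 apart from VIM1, VIM3 and VIM6 in extent and score. VIM2 and VIM4 have no listed locus and could not be compared in this way. A locus counted as marked if it shared 1 bp or more with a peak, and for H3K4me3 the locus was first widened by 500 bp at each end. H3K27me3 peaks covered 3 of the 8 loci, those of VIM5, VIM1 and VIM3 (15.3% of all listed loci). H3K4me3 peaks marked 6 of the 8, all but VIM5 and CMT3 (86.4% of all listed loci), and H3K9me2 peaks marked 0 of the 8 (0.680% of all listed loci). These are counts from 1 WT library per mark, and the pold2 chromatin was not analysed here.

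At VIM5 a single H3K27me3 peak (chromosome 1, 21408554 to 21412549) covered the whole locus (100% of its 3661 bp). Its score, a value of the authors, was 2473 and ranked 64 among 7271 peaks of that list. At VIM1 the peak over the locus (21414094 to 21417040) covered 76.0% of it with a score of 194, above 45.0% of the list. At VIM3 the peak (chromosome 5, 15837290 to 15839487) covered 64.1% of the locus with a score of 123, above 31.2% of the list. Stronger H3K27me3 peaks flanked VIM3, of score 1315 at 1484 bp beyond its lower-coordinate end and of score 1254 at 1000 bp beyond the other. Over their loci, VIM1 and VIM3 thus carried partial H3K27me3 peaks of lower score than that of VIM5. Both also carried an H3K4me3 peak at the higher-coordinate end, of score 82.1 over 18.8% of the VIM1 locus and of score 697 over 28.5% of the VIM3 locus. Both marks together were found on 7.65% of all listed loci. Whether the same cells carried both cannot be told from whole seedlings. VIM6 and the 4 other maintenance genes had no H3K27me3 peak over the locus, and the nearest ones lay 308 bp beyond CMT2 and 1680 bp beyond CMT3. VIM5 was among 816 listed loci that lay wholly under H3K27me3 with no H3K4me3 peak. Of these, 17.8% passed as higher and 8.33% as lower by the authors' q, beside 5.97% and 6.47% of all genes. A locus under 0.5 FPKM in WT has a row only if it is higher in pold2, and how many of the 816 are such was not counted.

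**Figure D3:**
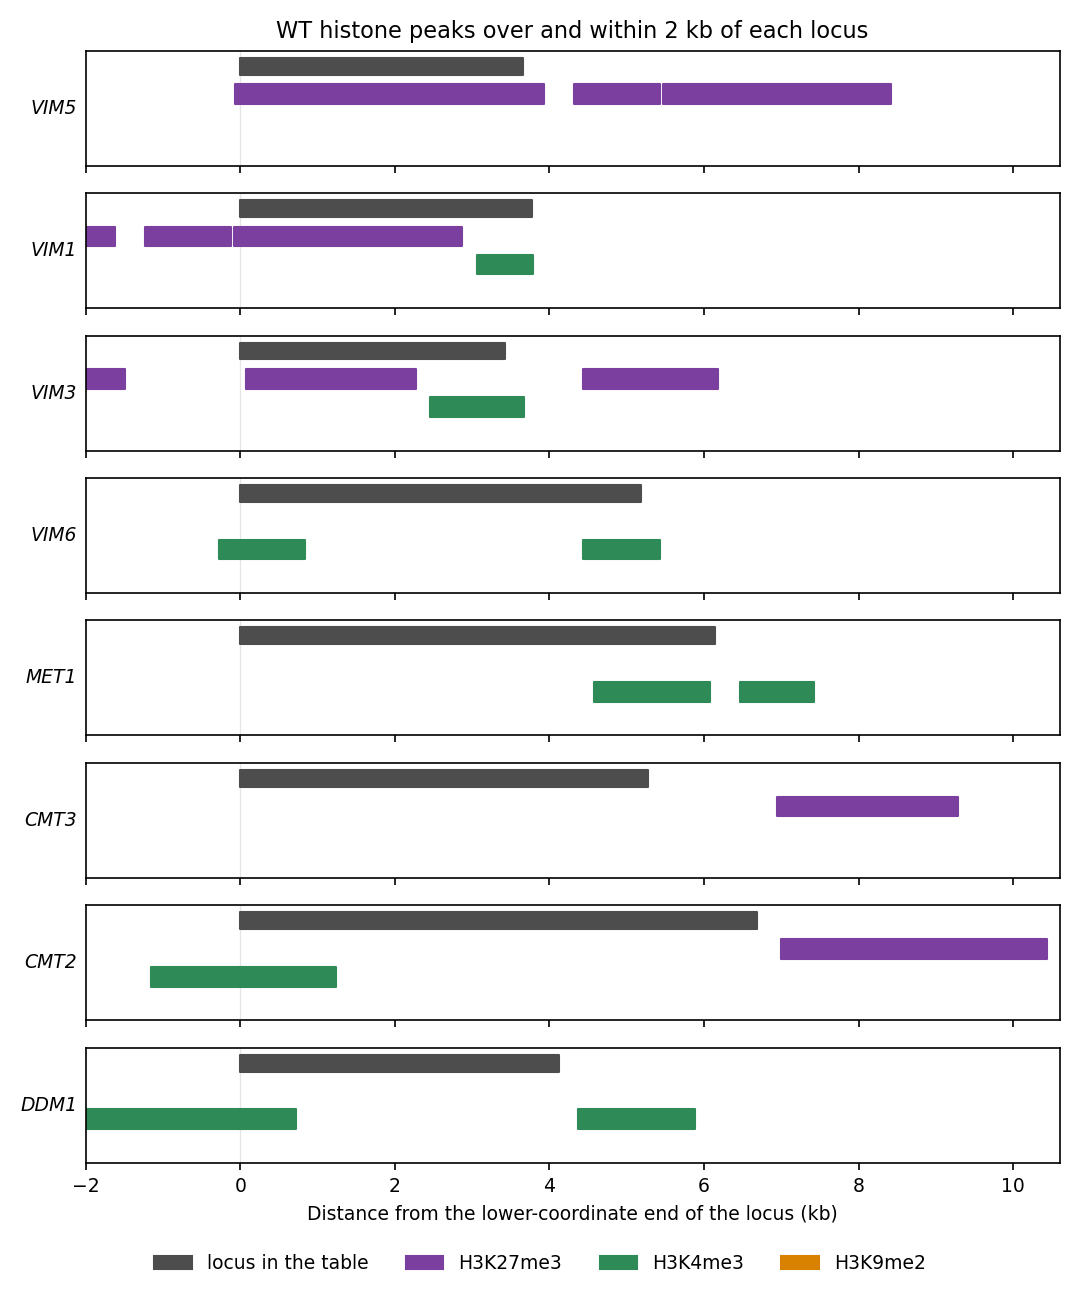
Map of WT peaks at the 8 loci, by distance in kb from the lower-coordinate end of each locus (grey bar), with H3K27me3 in purple, H3K4me3 in green and H3K9me2 in orange; peaks within 2 kb are included. H3K27me3 covers all of VIM5, 76.0% of VIM1 and 64.1% of VIM3, and no H3K9me2 peak appears.

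Among the other maintenance genes, the H3K4me3 score did not follow the transcript level. CMT2 had a peak of score 2773 over the lower-coordinate end of its locus, above 81.1% of the H3K4me3 list, and DDM1 one of score 1981 at the same end, above 63.9%. A further peak, of score 2935, lay 250 bp beyond the other end of DDM1. MET1, at a higher WT level than both, had a peak of score 98.9, above 3.91% of the list, toward the higher-coordinate end of its locus, and another of score 183 that lay 326 bp beyond that end. VIM6 had a peak at each end of the locus that it shares with AT4G08580, of scores 713 and 504. CMT3 had no peak of the 3 marks over its locus, as had 5.83% of all listed loci. Of the 4916 genes at or above the CMT3 level in WT, 3.80% had no H3K4me3 peak.

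VIM5 and VIM1 are neighbours on chromosome 1, with 1886 bp between their loci. Between the VIM5 peak and the VIM1 peak lay another H3K27me3 peak (21412944 to 21414052) of score 183. The next listed loci on both sides carried no H3K27me3 peak. On the VIM5 side, AT1G57790 was at 3.99 FPKM in pold2 and 4.07 FPKM in WT in the authors' deposited table (q = 0.947). Beyond it AT1G57770 was lower in pold2, at 15.6 FPKM in pold2 and 19.8 FPKM in WT in the authors' deposited table (log2 ratio -0.34, q = 0.0165). On the VIM1 side, AT1G57860 was at 125 FPKM in pold2 and 138 FPKM in WT in the authors' deposited table (q = 0.448), and SK42 (AT1G57870) had a log2 ratio of -0.03 (q = 0.920). Of these 6 neighbouring genes, VIM5, singled out for its change, was the only one called higher in the authors' deposited table (5.97% of all genes).

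VIM4 and VIM2 are also close together, in that order, between the listed genes AT1G66020 and AT1G66070 in the reference gene table of TAIR10.1. The interval between these neighbours (chromosome 1, 24580186 to 24595773, TAIR10) is 15588 bp long and holds 3 further genes with no row. H3K27me3 covered 57.7% of it, in 7 peaks of scores from 80.5 to 730, of which the highest runs in from AT1G66020. There was 1 H3K4me3 peak (24585980 to 24586973), of score 94.7, and 0 H3K9me2 peaks. None of the 7 H3K27me3 peaks reached the score of the VIM5 peak. The bounding genes did not pass the threshold in the authors' deposited table. AT1G66020 was at 0.884 FPKM in pold2 and 0.690 FPKM in WT (q = 0.385), and AT1G66070 was at 32.9 FPKM in pold2 and 33.4 FPKM in WT (q = 0.929), in the authors' deposited table. The listed genes beyond them, TPX1 (AT1G65980, q = 0.453) and AT1G66080 (q = 0.701), were not called either in the authors' deposited table.

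**Figure D4:**
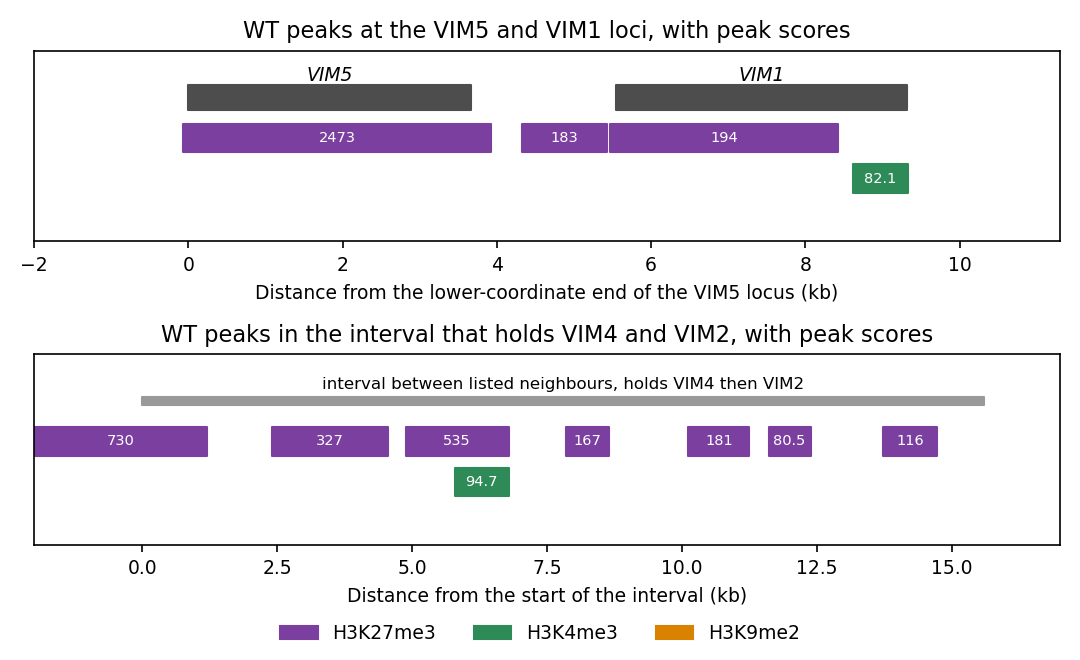
WT peaks at the VIM5 and VIM1 loci (top) and in the interval that holds VIM4 and VIM2 (bottom), by distance in kb, with the authors' peak score written on each peak and marks coloured as in the legend. The H3K27me3 peak over VIM5 has a score of 2473, against 194 over VIM1 and at most 730 in the interval.

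The wider machinery of DNA methylation and silencing was compared in the same table. Of 53 genes in 8 role groups, 47 had a row, and the authors' deposited table called 7 of these higher and 3 lower, with 37 left uncalled, beside 5.97% higher and 6.47% lower over all genes. Their median log2 ratio was 0.03, and 14 of the 47 had an unadjusted p under 0.05 in the authors' deposited table, beside 24.0% of all genes. The groups were written with earlier results of these data known.

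In RNA-directed DNA methylation, in which small RNAs guide new methylation, the authors' deposited table called 4 of 20 listed genes, each of them higher in pold2 (5.97% of all genes), with 6 at an unadjusted p under 0.05 (24.0% of all genes). The subunits of RNA polymerases IV and V (NRPD1, NRPE1 and NRPD2), the RNA polymerase RDR2, the dicer DCL3 and the effector AGO4 were among the 16 not called. CLSY3 (AT1G05490), a remodeller that recruits RNA polymerase IV and is known for its role in ovules, was at 1.85 FPKM in pold2 and 0.526 FPKM in WT in the authors' deposited table (log2 ratio 1.81, q = 0.00103). AGO9 (AT5G21150), an ARGONAUTE also known from ovules, was at 0.704 FPKM in pold2 and 0.267 FPKM in WT in the authors' deposited table (log2 ratio 1.40, q = 0.00103). CLSY4 (AT3G24340) was at 1.90 FPKM in pold2 and 1.09 FPKM in WT in the authors' deposited table (log2 ratio 0.80, q = 0.00103). These are low levels, and AGO9 has a row only through its pold2 value. SUVH2 (AT2G33290), which helps to bring RNA polymerase V to methylated DNA, was at 9.44 FPKM in pold2 and 7.31 FPKM in WT in the authors' deposited table (log2 ratio 0.37, q = 0.0147). Of the floral markers, 7 of 8 were called higher in pold2 as well (5.97% of all genes), though AP1, AP3, PI, AG, SEP1 and SEP2 have a row only through pold2. The part of the floral markers in the CLSY3 and AGO9 levels was not tested.

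Genes that remove methylation or act on histones gave 3 further rises and 2 falls. Beside each of these counts, 5.97% of all genes were called higher and 6.47% lower. IBM1 (AT3G07610), the H3K9 demethylase that keeps gene bodies free of CHG methylation, was at 25.1 FPKM in pold2 and 19.5 FPKM in WT in the authors' deposited table (log2 ratio 0.37, q = 0.00471). It was the 1 called of 4 genes of H3K9 methylation and its removal. ROS1 (AT2G36490), a DNA glycosylase that excises methylated cytosine, was at 18.9 FPKM in pold2 and 15.6 FPKM in WT in the authors' deposited table (log2 ratio 0.28, q = 0.0458). It was the 1 called of 4 demethylase genes. FAS1 (AT1G65470), the large subunit of the chromatin assembly factor that deposits histones behind the fork, was at 16.4 FPKM in pold2 and 13.0 FPKM in WT in the authors' deposited table (log2 ratio 0.33, q = 0.0202).

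The linker histone genes fell together. H1.1 (AT1G06760) was at 109 FPKM in pold2 and 145 FPKM in WT in the authors' deposited table (log2 ratio -0.41, q = 0.00103). H1.2 (AT2G30620) was at 79.5 FPKM in pold2 and 111 FPKM in WT in the authors' deposited table (log2 ratio -0.48, q = 0.00103). Both are the main linker histones of Arabidopsis, which limit the access of methyltransferases to heterochromatin. Both were lower along with 5 of the 17 S-phase markers (6.47% of all genes were called lower). The part of these markers in the H1.1 and H1.2 levels was not tested.

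The remaining groups held no called rise. They are small, and beside each of their counts 12.4% of all genes were called and 24.0% had an unadjusted p under 0.05. None of 3 listed methyltransferases outside the 8 was called in the authors' deposited table from Cuffdiff, with 1 at an unadjusted p under 0.05. DRM2 (AT5G14620), the methyltransferase of the RNA-directed pathway, was at 5.61 FPKM in pold2 and 6.95 FPKM in WT in the authors' deposited table (q = 0.0767), and DRM3 (AT3G17310) had a log2 ratio of -0.02 (q = 0.930). None of 4 genes of silencing that leaves DNA methylation in place, such as HDA6 (AT5G63110, q = 0.581) and MOM1 (AT1G08060, q = 0.501), and none of 6 genes of methyl group supply, such as SAHH1 (AT4G13940, q = 0.921) and ADK1 (AT3G09820, q = 0.721), was called in the authors' deposited table, with 0 of either group at an unadjusted p under 0.05. SDC (AT2G17690), an F-box gene kept silent by non-CG methylation, was lower, at 0.286 FPKM in pold2 and 0.850 FPKM in WT in the authors' deposited table (log2 ratio -1.57, q = 0.0298).

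**Figure D5:**
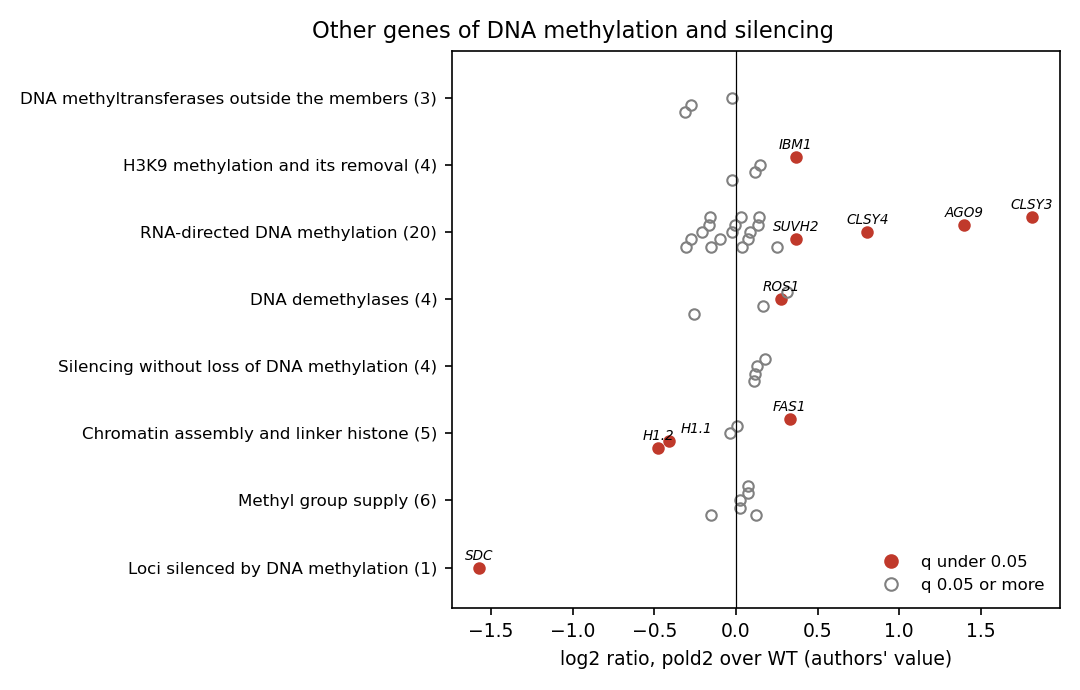
The authors' log2 ratio of pold2 over WT for the 47 listed genes of DNA methylation and silencing in 8 role groups (number of genes in parentheses), filled where the authors' q is under 0.05. The called genes run from SDC at -1.57 to CLSY3 at 1.81, and most other genes lie close to 0.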

How the data were processed

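The submitters' processing notes name TopHat2 2.1.1, Cuffdiff 2.1.1, Bowtie2 2.0.5 and TAIR10, with no role or order. Per the file headers, the RNA table holds 1 FPKM value per genotype, the log2 ratio of pold2 over WT, and a p-value and q-value, which were used as the authors deposited them. Recomputing the Benjamini-Hochberg adjustment over all 19858 genes gave the deposited q-value to within 5.28e-07. The smallest deposited p is 5e-05. Peak scores are those the authors deposited; peak names begin with MACS, with caller version and control not given in the sources used here. Only within a list were scores compared. Loci in the table and peaks are in TAIR10, written counted from 1, with no strand.

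The call was an authors' q under 0.05. Python 3.11.15 and pandas 2.3.3 computed overlaps, sums and medians, and the overlap and adjustment steps were tested on simulated data. Symbols came from a TAIR10.1 gene table. Members, gene lists (15) and alternatives were chosen with earlier results of these data known. Named were POLD2, the members, up to 2 listed neighbours on each side of the VIM genes of chromosome 1, the 5 genes nearest to VIM5, and up to 4 called genes per list by smallest q, or the 2 most expressed where none was called. Marker lists are given by their counts, and the floral, seed and S-phase lists also by their sums. Protein and promoter sequences planned for comparison were not used here.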

Additional observations from a re-analysis of the deposited data

How the results depend on the processing

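No paired analysis was possible because the RNA table holds 1 pooled value per genotype, so no replicate could be left out either. At q under 0.01, 1 member was called higher (VIM5, without MET1) and 4 genes of the wider pathway. With a 2-fold minimum, 1 member was higher and 0 lower, and 2 wider pathway genes were higher and 1 lower. With a minimum mean of 5 FPKM, which leaves out VIM5 and VIM6, 1 member was higher and 4 wider pathway genes. The log2 ratio of VIM5 was 3.39, 1.46 and 0.47 with 0.1, 1 and 5 FPKM added, and that of VIM6 was -0.10 with 5 FPKM added; no ratio changed sign in any setting. In the better-scoring 50% of peaks, 1 member kept an H3K27me3 peak (VIM5) and 2 an H3K4me3 peak (CMT2 and DDM1), and 0 had at least 50% of the locus under H3K4me3. The lack of values per library limits every gene, and the size of the VIM5 ratio depends on the value added.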

Other observations

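H3K27me3 in WT was found on 3 of the 7 wider pathway genes called higher, namely AGO9, CLSY3 and CLSY4, on 0 of the 3 called lower and on 4 of the 37 not called (MET2A, NRPE1, RDR2 and CLSY1). That makes 7 of the 47, beside 15.3% of all listed loci. AGO9, at 0.267 FPKM in WT, has a row only through its pold2 level, which fixed its direction. The share of marked loci among all genes called higher or lower was not counted. A link between the mark and the direction of the calls was therefore not tested. The peaks covered 92.1% of the AGO9 locus, 66.7% of the CLSY3 locus and 88.6% of the CLSY4 locus. Of the 3, CLSY4 alone also carried an H3K4me3 peak. MET2A was the only one of the 47 under an H3K9me2 peak.

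The 5 genes nearest to VIM5 in level, by the distance between their pairs of log2(FPKM + 0.1) in pold2 and WT, were AT3G28230, AT4G25330, PGLP1 (AT5G36700), AG (AT4G18960) and AT2G42885. Their levels ran from 1.76 to 2.45 FPKM in pold2 and from 0.0802 to 0.161 FPKM in WT. Like VIM5, all 5 were under 0.5 FPKM in WT and have a row only through their pold2 level, which fixed their direction. None of the 5 was called by the authors' Cuffdiff q (12.4% of all genes, 36.4% of genes under 0.5 FPKM in WT). Of the 5, 0 passed an unadjusted p under 0.05 (24.0% of all genes). VIM5, singled out for its change, had q = 0.00188 in the authors' deposited table. AG, the floral organ identity gene, had p = 0.0917 and q = 0.305 in the authors' deposited table. H3K27me3 covered 100% of the AG locus, 90.6% of AT3G28230 and 92.8% of AT4G25330, and PGLP1 and AT2G42885 carried no such peak. The likeness rests on 2 values per gene.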
